A study of Oryza sativa with 12 samples.

Results

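The genes described here are the calcium-dependent protein kinases of rice, CPK1 to CPK29, and CCAMK, the calcium- and calmodulin-dependent kinase. Members were taken by name, as probe sets annotated to 1 gene whose symbol or synonym is CPK or CDPK with a number, or CCAMK. Of the 30 names listed, 25 had a gene in the reference, and 21 of these genes had a probe set of their own, 25 probe sets among the 57258 on the array that are not controls. CPK10, CPK15, CPK16, CPK26 and CPK27 had no entry under these names, and CPK11, CPK14, CPK25 and CPK28 had no probe set annotated to 1 gene, so these 9 names were not analysed here. CPK6, CPK13, CPK18 and CCAMK each had 2 probe sets. Some synonyms are shared, since OsCDPK2 is listed for both CPK2 and CPK19 and OsCDPK7 for both CPK7 and CPK13, and CPK names are used below.

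Leaf RNA of 2.5-month-old rice (*Oryza sativa* ssp. japonica cv. Dongjin), from the youngest fully expanded leaf, was hybridised to 12 Affymetrix rice genome arrays. WT (wild type) plants and *osnadk1*, a single T-DNA insertion line in which the gene of the NAD kinase OsNADK1 is interrupted, were sampled under normal growth (day 0 of the treatment, soil moisture 47.3%) and under drought (day 15, 8.5%), with 3 arrays for each of the 4 groups. The conditions are 15 days apart, so a drought difference also holds any change with age. The study profiled the mutant because it was sensitive to drought, and the comparisons ask which leaf transcripts differ between the genotypes and with water loss. A single mutant line carries whatever else differs in that line, and the labels mark the WT arrays as re-analysed. The labels call the replicates biological without naming the plants behind each, so each p-value reflects the spread from array to array only.

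Calcium-dependent protein kinases join a Ser/Thr kinase domain to a calmodulin-like domain with EF hands, so that one protein both senses calcium and phosphorylates its targets. When cytosolic calcium rises, as in drought, salt, cold or pathogen attack, calcium binding relieves the kinase from an autoinhibitory segment. In plants their known targets include NADPH oxidases, ion channels and the transcription factors of abscisic acid signalling. CCAMK binds both calcium and calmodulin and is best known for decoding calcium signals in root symbiosis. Much of this regulation acts on the proteins, and arrays measure only transcripts.

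Values are log2 MAS5 signals, in which 1 unit is a 2-fold change. A level is read against the median of its own array, which lay between 5.08 and 5.43 and serves as the background level, as no detection calls were used. Tests were run on the 32110 probe sets that reached that median on at least 3 arrays, among them 20 of the 25 CPK and CCAMK probe sets, from 17 genes. Levels are not compared between probe sets. In RNA of whole leaves, fewer cells of a type and less RNA per cell cannot be told apart.

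The labels bear out the mutation, since OsNADK1 signal was 3.96 to 5.65 on the 6 *osnadk1* arrays and 9.43 to 10.27 on the 6 WT arrays. Of 11 leaf marker probe sets 8 lay above the array median on every array, with a summed signal of 17.02 to 17.67 on the log2 scale. None of 3 anther and pollen markers did on any array. Of 4 root markers 2, and of 8 seed markers 3, lay above it on every array. Prefixes of the array labels divide the arrays into a pair of sets of 6, called jobs A and B here on the inference that each set was hybridised together. Each job holds all 4 groups. Job A has 2 *osnadk1* arrays and 1 WT array per condition, and job B has 1 and 2. The 3 normal growth arrays of job A stood apart from the other 9, at 121.4 to 140.4 against -66.34 to -26.51 on the first principal component, which held 33.9% of the variance. The jobs are therefore also described apart.

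Most probe sets of the family lay above the array median in these leaves. That median was reached on at least 3 arrays by 32110 of all 57258 probe sets, and by 20 of the 25 described here. The share of all probe sets above it on all 12 arrays was not counted. Of the 25 probe sets, 19 lay above their own array's median on all 12 arrays, from 16 genes, namely CPK1, CPK3, CPK4, CPK5, CPK7, CPK8, CPK9, CPK12, CPK13, CPK17, CPK18, CPK19, CPK20, CPK23, CPK24 and CCAMK. CPK21, a kinase that raises salt tolerance when overexpressed, lay above the median on 6 arrays and below it on the other 6, among them all 3 of *osnadk1* under normal growth. CPK22 did so on 1 array. CPK2, both probe sets of CPK6 and CPK29 stayed below it on every array, with signals of 0.29 to 2.61 for CPK2, 0.00 to 5.24 for CPK6 and 1.07 to 4.05 for CPK29. These 4 dim genes, CPK22 included, were not tested.

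Several members had narrow ranges across all 12 arrays. CCAMK probe set 1 ran from 9.75 to 10.35. CPK17, known for a role in cold tolerance, ran from 10.92 to 11.60 with a median of 11.23. CPK1 ran from 11.31 to 11.90, CPK8 from 11.37 to 12.03, and CPK23, which phosphorylates sucrose synthase in immature seeds, from 6.36 to 7.09. The widest ranges among probe sets above the median on every array were those of CPK9, from 5.67 to 9.02, CPK3, from 7.00 to 9.64, and CPK24, from 8.80 to 11.38. The normal growth arrays of job A were the 3 highest for CPK9 and the 3 lowest for CPK24, and the WT one among them was the lowest for CPK3.

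No CPK or CCAMK probe set passed the test of a difference between *osnadk1* and WT. Under normal growth 0 of 20 passed (limma, Benjamini-Hochberg adjusted p below 0.05), where 0.146% of all probe sets tested did. None had an unadjusted p below 0.05, where 6.04% of all did. The changes ran from -1.96 to 0.88 with a median of -0.07, against -0.04 over all probe sets. Under drought again 0 of 20 passed, where 0.0623% of all did. An unadjusted p below 0.05 was reached by 2 of 20, and by 5.28% of all. Here the range was -0.25 to 1.15 and the median 0.10, against 0.01 over all. The lowest adjusted p of a member was 0.838 under normal growth and 0.922 under drought (limma). With 3 arrays a group and jobs that differ, a p that misses the threshold does not show that the genotypes were alike. The plot of genotype differences gives each value with its error.

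**Figure D1:**
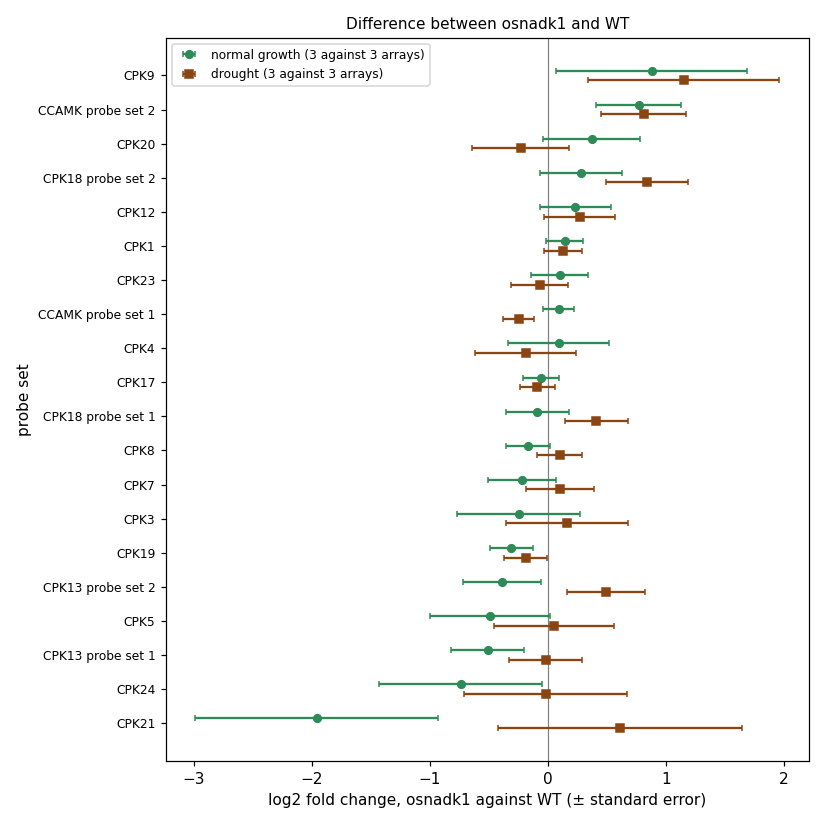
Difference between osnadk1 and WT (log2 fold change, horizontal axis, ± standard error) of the 20 tested CPK and CCAMK probe sets (vertical axis) under normal growth (circles) and drought (squares), 3 arrays against 3. The errors are widest for CPK21, CPK9 and CPK24, and the second CCAMK probe set is higher in osnadk1 by 0.77 and 0.81 without passing the test in either condition.

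CCAMK was the member whose genotypes lay apart in both conditions, on 1 of its 2 probe sets. CCAMK probe set 2 read 6.63, 6.98 and 6.74 in *osnadk1* and 5.28, 6.36 and 6.39 in WT under normal growth. Under drought it read 7.16, 7.11 and 6.44 in *osnadk1* and 6.08, 6.41 and 5.80 in WT. Every *osnadk1* array was above every WT array of its condition, though by little, since the nearest arrays under drought were at 6.44 and 6.41. Such an order in both conditions held for 0.564% of all probe sets. The difference was 0.77 ± 0.36 (± standard error, limma, adjusted p = 0.838) under normal growth and 0.81 ± 0.36 (limma, adjusted p = 0.936) under drought. Within job A it was 1.52 ± 0.39 and 1.06 ± 0.39, and within job B 0.37 ± 0.44 and 0.33 ± 0.44. The job B values were smaller than their errors, and each value rests on a single array of 1 genotype. The shared direction follows from the order of the arrays given above, so it is no separate support.

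CCAMK probe set 1 gave another picture. It read 10.00, 9.75 and 10.04 in *osnadk1* and 9.80, 9.96 and 9.77 in WT under normal growth, with the genotypes overlapping. Under drought *osnadk1* read 9.98, 10.06 and 10.05 and WT 10.18, 10.35 and 10.33, every mutant array being below every WT array by a small margin. The difference under drought was -0.25 ± 0.13 (limma, adjusted p = 0.979), opposite in sign to that of probe set 2, so the probe sets of this gene disagreed. From normal growth to drought, CCAMK probe set 1 was higher on every WT array, by 0.45 ± 0.13 (limma, adjusted p = 0.265, and 0.0337 with a job term within each treatment). The share of all probe sets higher on every WT array was not counted. In *osnadk1* CCAMK probe set 1 was higher by 0.10 ± 0.13, and the conditions overlapped. The interaction, the drought response of *osnadk1* minus that of WT, was -0.34 ± 0.18 (limma, adjusted p = 0.975).

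**Figure D2:**
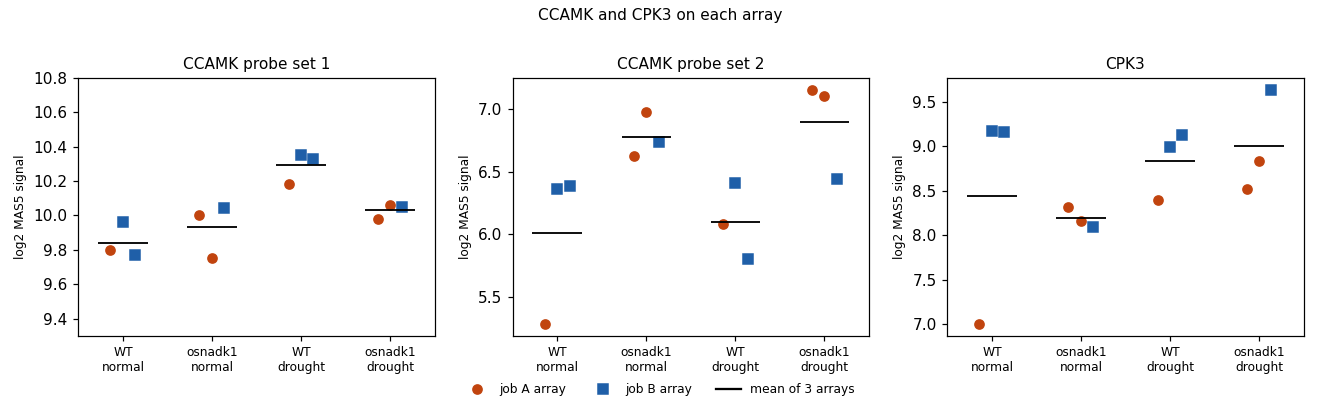
Signal (log2 MAS5 units, vertical axis) of both CCAMK probe sets and CPK3 on each array by group (horizontal axis), with circles for job A, squares for job B and a line at the mean of 3 arrays. The second CCAMK probe set is at 6.44 to 7.16 on the 6 osnadk1 arrays and at 5.28 to 6.41 on the 6 WT arrays, and the WT normal array of job A holds the lowest CPK3 value, 7.00.

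Under normal growth CCAMK probe set 2 was the only member without overlap between the genotypes, 1 of 20, where 7.81% of all probe sets did not overlap. Under drought 4 of 20 did not, where 15.2% of all did not. These were CCAMK probe set 2, CPK18 probe set 2 and CPK9, higher in *osnadk1*, and CCAMK probe set 1, lower. CPK18 is known for phosphorylating the MAP kinase MPK5 and for holding back blast defence. Its probe set 2 was at 7.49, 7.37 and 6.79 in *osnadk1* and 6.65, 6.16 and 6.31 in WT under drought, a difference of 0.84 ± 0.35 (limma, adjusted p = 0.922). Its probe set 1, which may read several transcripts, was at 10.79, 10.92 and 10.24 against 10.21, 10.13 and 10.37, and the genotypes overlapped.

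CPK9, which favours drought tolerance and spikelet fertility in rice, was 2.22-fold higher in *osnadk1* than in WT under drought, at 7.17, 7.12 and 6.62 against 5.86, 5.67 and 5.93. The log2 difference of 1.15 ± 0.81 did not pass the test (limma, adjusted p = 0.999). The error comes from a spread shared by all 4 groups, and under normal growth CPK9 was spread from 5.74 to 9.02 in *osnadk1* and from 6.18 to 8.39 in WT. Within job A the drought difference was 1.29 ± 0.24 (limma, adjusted p = 0.0993), and within job B 0.82 ± 0.46 (limma, adjusted p = 0.636). Without the 3 normal growth arrays of job A it was 1.15 ± 0.27 (limma, adjusted p = 0.18). Under normal growth the genotypes of CPK9 overlapped, and their difference was 0.88 ± 0.81 over all arrays, 0.62 in job A and -0.63 in job B.

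CPK3 had genotype differences of opposite sign in the jobs. Under normal growth it read 8.32, 8.16 and 8.09 in *osnadk1* and 7.00, 9.17 and 9.16 in WT, where the first WT array belongs to job A and the other two to job B. Over all arrays the difference was -0.25 ± 0.52 (limma, adjusted p = 0.939). Within job A *osnadk1* was higher by 1.24 ± 0.24 (limma, adjusted p = 0.0478), against a single WT array, and within job B it was lower, at -1.08 ± 0.17 (limma, adjusted p = 0.0368), with a single *osnadk1* array. A single array is assumed there to vary like the other groups. CPK3 was the only member of 20 past the test in either job, where the share of all probe sets passing was 3.77% (job A) and 2.03% (job B). Under drought CPK3 read 8.52, 8.83 and 9.64 in *osnadk1* and 8.40, 8.99 and 9.13 in WT, and the genotypes overlapped. The interaction of CPK3 was 0.41 ± 0.73 over all arrays (limma, adjusted p = 0.98). It was -0.97 ± 0.35 in job A alone, with a single WT array per condition. The job B value had the opposite sign and rests on a single *osnadk1* array per condition. In job B alone the interaction of CPK3 was 1.66 ± 0.24 (limma, adjusted p = 0.0397), and 1.23% of all probe sets passed there.

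CPK21 was not above background in *osnadk1* under normal growth, so its differences have no measured size. There it read 3.96, 0.06 and 5.08, each below the median of its array, against 5.18, 4.57 and 5.23 in WT, of which 1 array lay above. Under drought it read 5.74, 6.10 and 5.68 in *osnadk1*, all above the array medians, and 5.38, 4.48 and 5.83 in WT. The fitted genotype difference under normal growth, -1.96 ± 1.03 (limma, adjusted p = 0.848), holds the array at 0.06. In job B alone, which lacks that array, it was 0.18 ± 0.84. The fitted drought response of CPK21 was 2.81 ± 1.03 in *osnadk1* (limma, adjusted p = 0.403). For job A it was 2.34 ± 1.05 (limma, adjusted p = 0.141), and both values hold the array at 0.06. No comparison of CPK21 passed in the fit to all 12 arrays.

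Without a term for the jobs, no member passed for drought, and with one within each treatment several did. In WT 0 of 20 passed, where 0.00623% of all probe sets did, and in *osnadk1* 0 of 20, where 0% did. At an unadjusted p below 0.05 there were 1 member in WT and 3 in *osnadk1*, and 3135 and 3966 of all probe sets (9.76% and 12.4%). Over the mean of both genotypes 0 of 20 passed as well, where 0.302% did. There 3 of 20 had an unadjusted p below 0.05, where 18.2% of all did. Of the interaction 0 of 20 passed, and 0% of all did, with 0 members and 1271 of all probe sets at an unadjusted p below 0.05. The median change of the members was 0.04 in WT and 0.32 in *osnadk1*, against 0.02 and 0.09 over all probe sets. CPK13, a kinase whose overexpression raises tolerance of cold, salt and drought, read 11.10, 11.26 and 12.41 in *osnadk1* on probe set 1 under normal growth and 12.35, 12.32 and 12.20 under drought. The job B array of normal growth was thus already at the drought level. With a job term within each treatment, 4 members passed in WT, where 9.96% of all probe sets did, namely CPK24 (0.98 ± 0.17, limma, adjusted p = 0.00595), CPK9 (-1.61 ± 0.29), CPK5 (0.76 ± 0.16) and CCAMK probe set 1 (0.45 ± 0.11). In *osnadk1* 2 passed, CPK24 (1.01 ± 0.17, limma, adjusted p = 0.00692) and CPK5 (0.87 ± 0.16), where 6.67% of all did. For the mean of the genotypes 7 passed, where 17.9% of all did, adding CPK13 probe set 1, CPK19 and CPK20 to the members named for WT. These fits average the jobs with equal weight, also where the job responses were unlike. CPK20, at -0.30 ± 0.08, averages -1.10 in job A and 0.50 in job B. With a single job term over both treatments, the lowest adjusted p of a member for this mean was 0.0621 (limma, CPK5).

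Split by job, the conditions differed for 7 genes of the family in job A, and none passed in job B in the fit to all 12 arrays. In job A 9 of 20 probe sets passed, 7 higher and 2 lower under drought, or 45.0%, where 24.6% of all probe sets tested did. In job B 0 of 20 passed, where 1.32% of all did. An unadjusted p below 0.05 was found there for 2 of 20, and for 13.0% of all. Over the 20 the median change was 0.51 for job A and 0.04 for job B, against 0.10 and -0.01 over all. Within each job the model took the mean of the genotypes. In fits to the 6 arrays of 1 job, 10 members passed in job A, where 27.3% of all did, and 1, CPK3, passed in job B, where 5.12% did. By genotype 6 passed in WT and 8 in *osnadk1* in job A, where 15.3% and 22.7% of all did, and CPK3 in *osnadk1* in job B, where 2.09% did. The difference of the responses was tested itself, and 7 of 20 probe sets passed, from 6 genes, where 13.2% of all did. These comparisons share arrays with each other and with the comparison of the jobs under normal growth, so their values are given side by side.

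**Figure D3:**
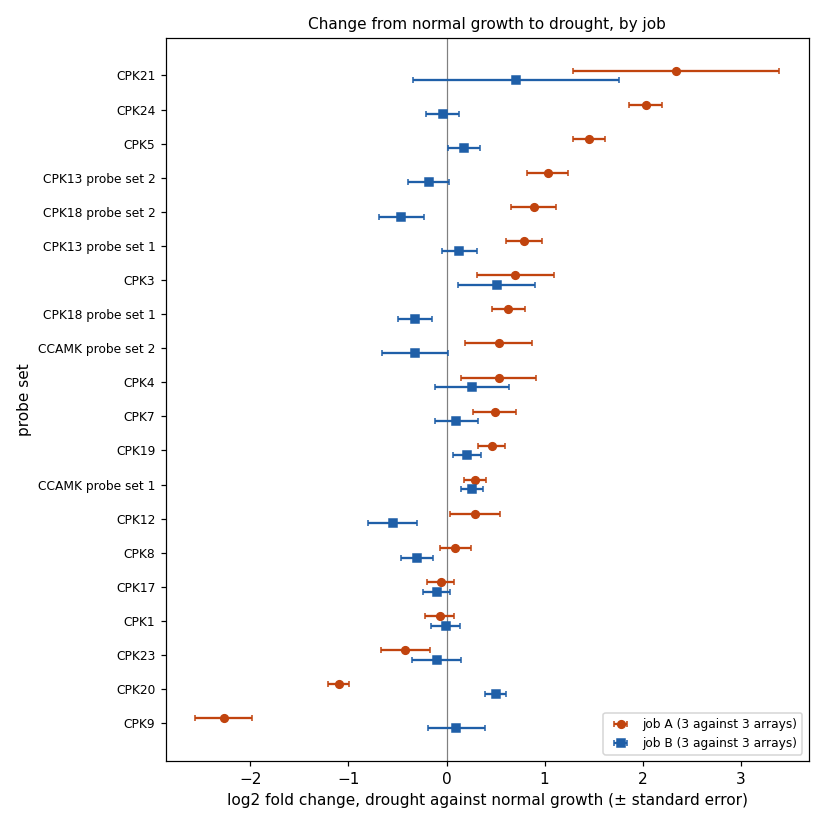
Change from normal growth to drought (log2 fold change, horizontal axis, ± standard error) of the 20 tested probe sets (vertical axis) in job A (circles) and job B (squares), each 3 arrays against 3. CPK24, CPK5, CPK20 and CPK9 lie far from 0 in job A, at 2.03, 1.45, -1.10 and -2.27, while their job B values run from -0.04 to 0.50. CPK21 is at 2.34 in job A, with the widest error, and its arrays include values below background.

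CPK24, which supports cold tolerance by inhibiting a glutaredoxin, rose most among the members that passed in job A. Its normal growth arrays of job A read 8.83 and 9.04 in *osnadk1* and 8.80 in WT, and its drought arrays of job A 11.00, 11.18 and 10.61. In job B it was at 11.17, 11.18 and 11.29 under normal growth and at 10.94, 11.38 and 11.18 under drought. Only the normal growth arrays of job A were low. CPK24 was higher under drought by 2.03 ± 0.17, or 4.09-fold, in job A (limma, adjusted p = 1.94e-05), against -0.04 ± 0.17 in job B (limma, adjusted p = 0.963), a difference of 2.07 ± 0.25 (limma, adjusted p = 0.0005).

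CPK5 followed the same course. In job A it read 8.45 and 7.97 in *osnadk1* and 8.22 in WT under normal growth, and 9.76, 9.84 and 9.45 under drought. In job B its values were 9.95, 9.80 and 9.81 under normal growth and 10.01, 9.88 and 10.14 under drought. The rise was 1.45 ± 0.16, or 2.73-fold, in job A (limma, adjusted p = 0.000115), and the job B value was 0.18 ± 0.16 (limma, adjusted p = 0.725). The probe set of CPK5 may read several transcripts by its name. The responses of CPK5 differed by 1.27 ± 0.23 between the jobs (limma, adjusted p = 0.00528).

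CPK9 went the other way. In job A it was at 9.02 and 9.01 in *osnadk1* and 8.39 in WT under normal growth, and at 7.17, 7.12 and 5.86 under drought. In job B it was at 5.74, 6.18 and 6.56 under normal growth and at 6.62, 5.67 and 5.93 under drought. CPK9 was 4.81-fold lower under drought in job A, a change of -2.27 ± 0.29 (limma, adjusted p = 0.000352), and the job B value was 0.10 ± 0.29 (limma, adjusted p = 0.944). The responses differed by -2.36 ± 0.43 (limma, adjusted p = 0.00533).

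CPK20 was the other member that fell in job A, from 11.59 and 11.50 in *osnadk1* and 11.49 in WT to 10.38, 10.36 and 10.51. In job B it was at 10.03, 10.30 and 10.23 under normal growth and at 10.59, 10.91 and 10.60 under drought. The conditions thus lay apart in job B in the opposite direction, and the share of all probe sets lying apart there was not counted. The change was -1.10 ± 0.11 in job A (limma, adjusted p = 8.24e-05) and 0.50 ± 0.11 in job B (limma, adjusted p = 0.0705). The difference of -1.60 ± 0.17 had the lowest adjusted p of the family (limma, adjusted p = 0.000203).

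**Figure D4:**
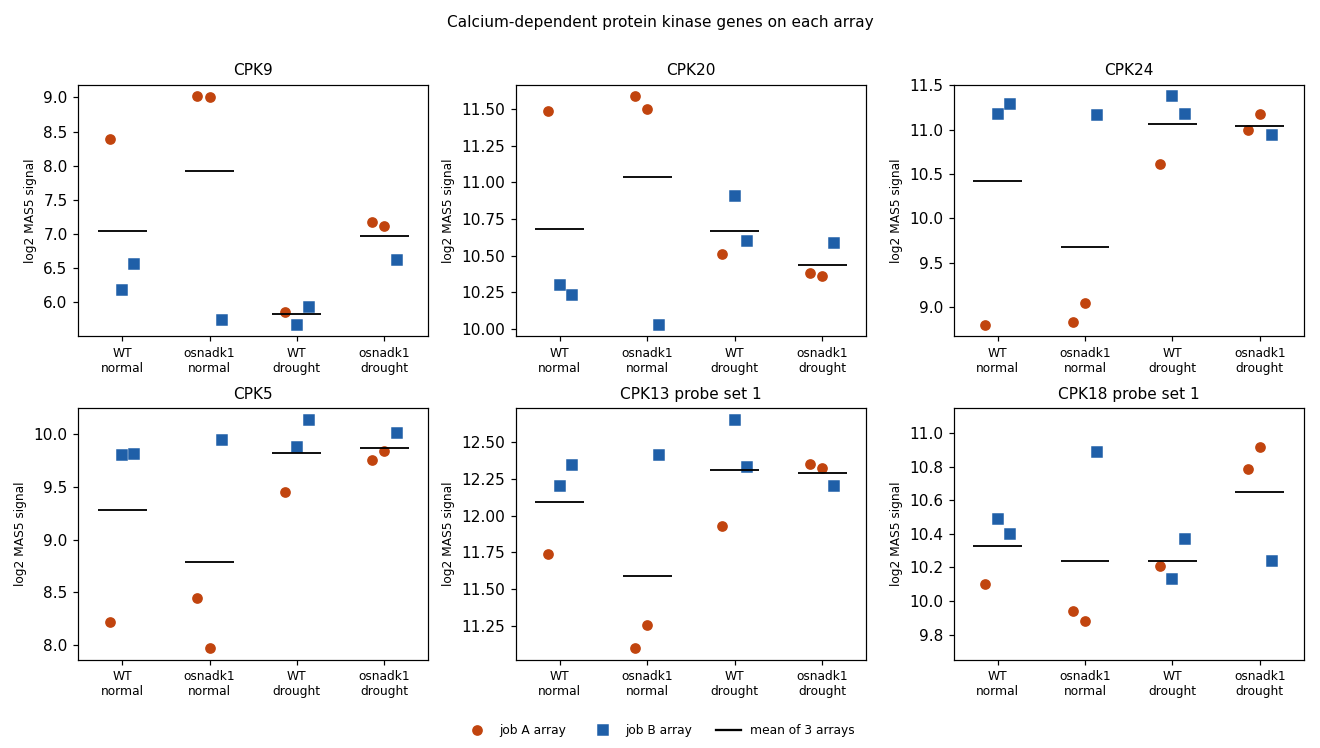
Signal (log2 MAS5 units, vertical axis) of 6 probe sets on each array by group (horizontal axis), with circles for job A, squares for job B and a line at the mean of 3 arrays. The 3 normal growth arrays of job A are the highest for CPK9 (8.39 to 9.02) and CPK20 (11.49 to 11.59) and the lowest for CPK24 (8.80 to 9.04), CPK5, CPK13 probe set 1 and CPK18 probe set 1.

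Both probe sets of CPK13 and both of CPK18 passed in job A. CPK13 probe set 1 moved from 11.10, 11.26 and 11.74 to 12.35, 12.32 and 11.93 in job A, a rise of 0.79 ± 0.18 (limma, adjusted p = 0.011), against 0.13 ± 0.18 in job B. CPK13 probe set 2 rose by 1.03 ± 0.21 in job A, from 7.17, 7.16 and 7.56 to 8.44, 8.65 and 8.11 (limma, adjusted p = 0.00487). In job B it read 7.69, 7.72 and 7.92 under normal growth and 7.51, 7.79 and 7.24 under drought. The job responses of probe set 2 differed by 1.21 ± 0.30 (limma, adjusted p = 0.0245), and those of probe set 1 did not pass this test.

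CPK18 probe set 1 rose in job A from 9.94, 9.88 and 10.10 to 10.79, 10.92 and 10.21, by 0.63 ± 0.17 (limma, adjusted p = 0.0238), and probe set 2 from 6.68, 6.21 and 5.91 to 7.49, 7.37 and 6.65, by 0.89 ± 0.23 (limma, adjusted p = 0.019). In job B the values were -0.32 and -0.46, neither past the test. The responses differed by 0.95 ± 0.25 on probe set 1 (limma, adjusted p = 0.034) and 1.35 ± 0.34 on probe set 2 (limma, adjusted p = 0.026). On probe set 1 the interaction within job A was 0.83 ± 0.21 and did not pass (limma, adjusted p = 0.137). The job A call of each CPK18 probe set was lost in 6 of 19 alternatives.

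CPK19 completed the 7 genes, rising in job A by 0.46 ± 0.14 (limma, adjusted p = 0.0356), from 11.52, 11.74 and 11.98 to 12.05, 12.10 and 12.49. In job B it read 12.22, 12.28 and 12.15 under normal growth and 12.51, 12.42 and 12.32 under drought, a change of 0.21 ± 0.14. Every job B drought array was above every job B array of normal growth. The share of all probe sets in such an order was not counted. The job responses of CPK19 did not pass the test of their difference, and its job A call was lost in 9 of 19 alternatives, with 0.22 (limma, adjusted p = 0.376) without the WT drought array of job A.

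The remaining tested members did not pass in either job in the fit to all 12 arrays. CPK3 had 0.70 ± 0.39 in job A against 0.51 ± 0.39 in job B there, and passed when each job was fitted alone, at 0.92 ± 0.17 (limma, adjusted p = 0.0092) for job A and 0.72 ± 0.12 (limma, adjusted p = 0.028) for job B. In job B it went from 8.09 to 9.64 in *osnadk1*, 1 array each, and from 9.17 and 9.16 to 8.99 and 9.13 in WT, so the job B value rests on the *osnadk1* arrays. CPK4, whose overexpression raises tolerance of salt and drought, had 0.53 ± 0.38 and 0.26 ± 0.38. On array 2 of WT under drought CPK4 reached 12.12, its highest value, while its other 11 values lay between 9.81 and 10.95. CPK7 had 0.49 ± 0.22 in job A against 0.10 ± 0.22 in job B. It passed in job A fitted alone, at 0.62 ± 0.12 (limma, adjusted p = 0.0103). CPK12, whose overexpression raises salt tolerance, had 0.29 ± 0.25 and -0.55 ± 0.25, the lowest job B value, at 8.15, 7.92 and 8.20 under normal growth and 7.75, 7.41 and 7.57 under drought (limma, adjusted p = 0.397). CCAMK probe set 1 was close in size between the jobs, at 0.29 ± 0.11 and 0.26 ± 0.11 (limma, adjusted p = 0.0974 and 0.37). With the job term within each treatment its mean response was 0.27 ± 0.08 (limma, adjusted p = 0.0364).

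Members differed between the jobs under normal growth, and none passed that test under drought. Under normal growth 7 of 20 differed between job A and job B, 2 higher and 5 lower in job A, where 24.6% of all probe sets did. CPK9 was higher in job A by 2.65 ± 0.30 (limma, adjusted p = 0.000147) and CPK20 by 1.37 ± 0.12 (limma, adjusted p = 2.22e-05). CPK24, at -2.34 ± 0.18 (limma, adjusted p = 8.77e-06), CPK5, at -1.66 ± 0.16 (limma, adjusted p = 5.44e-05), CPK13 probe set 1, at -0.88 ± 0.19, and CPK18, at -0.66 ± 0.18 and -0.82 ± 0.24, were lower. Under drought 0 of 20 passed, where 1.61% of all did. An unadjusted p below 0.05 was found for 2 of 20, and for 13.8% of all. CPK13 probe set 2 came nearest there, at 0.82 ± 0.21 (limma, adjusted p = 0.102).

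On the array level, the 3 normal growth arrays of job A lay above the other 9 for CPK9 and CPK20, and below the other 9 for CPK5, CPK13 probe set 1, CPK18 probe set 1, CPK19 and CPK24. That was 7 of 20 probe sets, where 22.4% of all probe sets lay apart in this way. CPK24 read 8.80 to 9.04 on these arrays and 10.61 to 11.38 on the others, and CPK9 8.39 to 9.02 against 5.67 to 7.17. Without these 3 arrays the mean drought response was -0.15 ± 0.17 for CPK24, -0.03 ± 0.16 for CPK5, 0.35 ± 0.25 for CPK9 and 0.41 ± 0.12 for CPK20. Normal growth then rests on job B arrays alone, with a single *osnadk1* array, while drought keeps both jobs. That fit has no job term, so drought and job are mixed in these values.

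Genes of the circadian clock moved with these arrays. LHY, a morning-phased clock factor, was at 13.02 to 13.79 on the 3 normal growth arrays of job A and at 7.31 to 8.63 on the other 9. PCL1, an evening-phased factor, was at 6.08 to 6.90 against 14.38 to 14.99, and PRR1 at 9.34 to 9.83 against 12.12 to 12.54. Of 9 clock probe sets tested, 4 were higher and 4 lower in job A than in job B under normal growth, and the list was drawn up after such values were known. Of 11 leaf markers 3 were higher and none lower. Among all probe sets tested, 24.6% differed in this comparison. The hour of harvest was not given in the sources used here, and the part of the clock genes in the CPK results was not tested.

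Other calcium sensors were described through lists matched by gene name. Their counts stand beside the share of all probe sets that passed for drought, 24.6% in job A and 1.32% in job B. Calmodulins and calmodulin-like proteins, which bind calcium but have no kinase domain, had 29 probe sets tested, of which 4 were higher and 6 lower under drought in job A and none in job B. The calcineurin B-like (CBL) sensors and their partner kinases, the CIPKs, form a parallel route from calcium to phosphorylation. Of 7 CBL probe sets none rose and 2 fell in job A, CBL4 at -3.51 and CBL10 at -0.98. Of 31 CIPK probe sets 6 rose and 11 fell there, with the largest changes in CIPK31 (-3.02), CIPK5 (-2.89) and CIPK18 (-2.30), and none passed in job B. CAMK1, the only calmodulin-dependent kinase besides CCAMK matched by name, rose by 0.43 ± 0.09 in job A (limma, adjusted p = 0.0076).

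Calcium channels and transporters, which shape the signal, had 14 probe sets tested, with 4 rising and 2 falling in job A, where 24.6% of all passed. The vacuolar exchanger genes CAX1a and CAX1b changed by -2.73 and 1.76, and the calcium ATPase gene ACA8 by 1.16 and 1.01 on a pair of probe sets. In job B, where 1.32% of all passed, ACA5 alone of this list did, at 1.25 ± 0.23 (limma, adjusted p = 0.0324). RBOHB, an NADPH oxidase gene of the kind that calcium-dependent kinases phosphorylate, rose by 2.38 ± 0.22 in job A (limma, adjusted p = 3.36e-05) against -0.14 ± 0.22 in job B. RBOHB was the only NADPH oxidase gene matched by name with a probe set of its own.

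Genes of abscisic acid signalling included some that changed in job B. Among all probe sets tested, 24.6% passed for drought in job A and 1.32% in job B. Of 10 probe sets for SnRK2 kinases, which act beside the CPKs in abscisic acid signalling, 4 rose and 1 fell in job A, SAPK9 by 5.53 ± 0.15, and SAPK4 alone rose in job B, by 1.09 ± 0.20 (limma, adjusted p = 0.0358). The clade A PP2C phosphatases, which hold these kinases inactive, had 7 probe sets tested. Of these, PP2C68 rose in job B by 1.72 ± 0.23 (limma, adjusted p = 0.0086) and fell by 1.03 ± 0.23 in job A (limma, adjusted p = 0.00776), OsPP2C09 rose in job B by 1.10 ± 0.21 (limma, adjusted p = 0.0367), and OsPP2C08 rose in job A by 2.13 ± 0.44. The bZIP factor gene ABF2 rose in job B by 1.63 ± 0.20 (limma, adjusted p = 0.00691), against -0.46 ± 0.20 in job A. The receptor gene PYL5, the only one matched by name with a probe set of its own, rose in job A by 0.48 ± 0.15 (limma, adjusted p = 0.0423).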

How the data were processed

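The authors deposited log2 MAS5 signals of Affymetrix rice genome arrays (MAS5 version not given in the sources used here). Each array was scaled to a common target, read here from the trimmed mean of its linear signals, which was 500.07 or 500.08 on every array. No further normalization was applied. Control probe sets (123) were left out. Names came from the reference table by symbol or synonym. The array build is not named, so no coordinates are given, and no sequences were used.

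Models were fitted with limma 3.58.1 (eBayes with trend) in R 4.3.3, files being read by data.table (version 1.17.8), and p-values were adjusted by Benjamini-Hochberg over all 32110 probe sets tested. One model had 4 group means. The other had a mean for each job and treatment and a genotype term within each treatment. On simulated data with 200 changed probe sets of 32110, the fits recovered 52 to 82 of 100 changed by 2 log2 units and 76 to 97 of 100 changed by 5, with 1 to 15 false calls. The simulation held no jobs that stand apart.

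The genes and lists were chosen with earlier results of these data known. Values on every array are given for members past the test, for those with the 3 largest changes of a comparison and for those whose groups did not overlap in both conditions, and other lists are named by up to 3 genes past the test. The values of CCAMK probe set 1 were given in addition after they were seen. Replicate numbers were not taken as pairs. Alternatives were quantile normalization, array median centring, other filters, a pseudocount of 16, low values raised to percentile 25, eBayes without trend, only the groups compared, blocks for replicate, job, or job by treatment, each job alone, each array left out, and removal of the 3 normal growth arrays of job A.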

Additional observations from a re-analysis of the deposited data

Results flagged for a closer look

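Of the results above, 7 drought responses differed between the jobs by a test of the difference itself (limma, job A minus job B, mean of the genotypes). The difference was 2.07 for CPK24, 1.27 for CPK5, 1.21 for CPK13 probe set 2, 0.95 for CPK18 probe set 1, 1.35 for CPK18 probe set 2, -2.36 for CPK9 and -1.60 for CPK20. CPK24, CPK5, CPK9 and CPK20 kept this call in all 19 alternatives run. CPK18 probe set 1 lost it in 10, CPK18 probe set 2 in 8 and CPK13 probe set 2 in 7 of them.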

How the results depend on the processing

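In each job 1 genotype has a single array per condition, WT in job A and *osnadk1* in job B. With 3 arrays a group the precision is limited throughout. Each scaling keeps the order within an array, so the count of 19 probe sets above the median could not change and is no check. Of 20 members, 1 passed for genotype under normal growth in job A alone and 1 in job B alone (3.77% and 2.03% of all probe sets tested). For drought in WT 4 passed with the job by treatment block and 6 in job A alone (9.96% and 15.3% of all). In *osnadk1* these counts were 2 and 8, with 1 in job B alone (6.67%, 22.7% and 2.09% of all). For the mean response they were 7, 10 and 1 (17.9%, 27.3% and 5.12%). Of the interaction 1 passed in job B alone (1.23%). For the difference of the jobs' responses 4 passed under array median centring. Leaving out each array in turn gave 0 to 0 members for either genotype comparison, for drought in WT and for the interaction, 0 to 4 for drought in *osnadk1* and for the mean response (4 without *osnadk1* normal replicate 3), 6 to 11 for drought in job A, 0 to 2 in job B (2 without WT normal replicate 1), 4 to 9 for the difference (4 without any 1 of the *osnadk1* drought arrays), 5 to 8 for the jobs under normal growth and 0 to 1 under drought (1 without *osnadk1* normal replicate 3 or WT normal replicate 1). With the replicate number as a block 0 members passed in any of the 6 comparisons. Shares of all probe sets were not counted for these refits or centring, so their shifts cannot be tied to the family. Same-numbered arrays had correlations of -0.265 to 0.319 over 18 pairs, 6 of them over 0.1, and 7 of 12 arrays correlated best with an array of their own number. Every replicate 1 is in job A and every replicate 3 in job B, so pairing cannot be told apart from job and was not assumed.

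The drought call of CPK19 in job A was lost without *osnadk1* normal replicate 1 or 2, *osnadk1* drought replicate 2, WT normal replicate 2 or WT drought replicate 1 or 2 (0.22 to 0.49). That of CPK18 probe set 1 was lost without *osnadk1* normal or drought replicate 1 or 2 (0.55 to 0.61), and that of probe set 2 without *osnadk1* normal replicate 2, *osnadk1* drought replicate 1 or 2, or replicate 1 of WT in either condition (0.77 to 0.98). For the jobs under normal growth CPK13 probe set 1 was lost without *osnadk1* normal replicate 3 (-0.53). Without that array drought in *osnadk1* passed for CPK5 (1.66) and for CPK21 (3.83, from arrays below background). Among values of named members, one without a call that stayed without it counts as kept, so the kept count does not measure stability. By that count 991 kept their direction and side of the threshold, 61 lost and 21 gained a call, and 23 reversed. The cause was not tested. Under normal growth the genotype difference of CPK21 turned to 0.18 and that of CPK9 to -0.63, each in job B alone and without the normal growth arrays of job A. That of CPK3 turned to 0.05 with the job block, 0.08 with the job by treatment block, 1.24 in job A alone and 0.11 without WT normal replicate 2 or 3 (lowest -0.98, leaving out WT normal replicate 1). Under drought that of CPK3 turned to -0.17 without *osnadk1* drought replicate 3 and -0.06 without WT drought replicate 1, the leave-one-out range being -0.17 to 0.39. The drought response of CPK24 turned to -0.18 in WT without the normal growth arrays of job A or WT normal replicate 1 (at most 1.07 with 1 array left out), to -0.23 in job B alone and -0.13 without those job A arrays in *osnadk1*, and to -0.09 and -0.15 for the mean. That of CPK5 in *osnadk1* turned to -0.08 without those arrays, and the mean response of CPK9 to 0.16 in job B alone and 0.35 without them. The interaction of CPK24 turned to -0.28 in job B alone. Without *osnadk1* normal replicate 3 the job B response of CPK3 turned to -0.46 and the difference of the jobs for CPK21 to -0.05, against highest leave-one-out values of 0.70 and 3.30.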
